A study of Mus musculus with 12 samples.

Results

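The transcriptional response of the Rgs4 knockout mouse lung to Aspergillus fumigatus was described from the 6 polyA RNA libraries of that genotype, out of 12 in the study. The members were chosen by their labels: 3 libraries from mice labelled RGS4 KO and given the fungus, written "Aspergillus funigatus" in the labels, and 3 libraries from mice labelled RGS4 KO and given phosphate-buffered saline (PBS). All were whole lung of strain Balb/cJ, and the wild-type (WT) animals of the study, also 3 with PBS and 3 with the fungus, entered the same fit, so they also bear on which genes were tested and on the estimate of the spread; they were described only to show where the knockout response differed. Libraries are named by group and by the number in their titles: KO_PBS 9, 10 and 11, KO_Af 12, 13 and 14, WT_PBS 15, 16 and 17, and WT_Af 18, 19 and 20. The age and sex of the mice, the way the knockout was made, and the form, route, dose and timing of the fungus are not stated in the labels used here.

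Aspergillus fumigatus is a mould whose spores are inhaled daily and whose proteases and cell wall sugars can provoke allergic airway inflammation. In that response injured epithelium releases alarmins such as interleukin 33, innate lymphoid cells and T helper cells answer with interleukins 4, 5 and 13, and the receptor of interleukins 4 and 13 activates the transcription factor STAT6. Mucus-producing goblet cells, eosinophils and alternatively activated macrophages are its hallmarks in the mouse. Rgs4 is a regulator of G protein signalling: it speeds the hydrolysis of GTP by Gq and Gi alpha subunits and so ends signals from receptors such as the muscarinic receptors that contract airway smooth muscle.

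Depth in the 6 knockout libraries ran from 21746326 to 27762459 reads, and 3 reads, the most that a count of 0 allows, stood for 0.0983 to 0.144 reads scaled to a common library size (CPM) over the 12 libraries; these limits cover counting error only. Values below are CPM as deposited, always in the order KO_PBS 9, 10, 11 and KO_Af 12, 13, 14, and a log2 difference is KO_Af minus KO_PBS on the log2(CPM + 0.5) scale, given with its standard error (SE) or its Benjamini-Hochberg adjusted p from limma. The tissue label held: the alveolar type 2 marker Sftpc stood at 5709 to 13642 CPM, the club cell marker Scgb1a1 at 6597 to 16926 CPM and the alveolar type 1 marker Ager at 698 to 2149 CPM over the 6 libraries. Rgs4 (ENSMUSG00000038530.11, chromosome 1, 169741477 to 169747642, minus strand, GRCm38) was close to silent in all of them, at 1.10, 1.0 and 0.571 CPM under PBS and 1.14, 1.47 and 0.848 CPM under Af (adjusted p = 0.24). Its neighbour in the family Rgs5, a pericyte gene, stood at 58.1, 42.1 and 66.4 CPM under PBS and 60.9, 31.8 and 60.1 CPM under Af, and neither gene passed the test. In WT lungs Rgs4 stood at 25.8, 20.7 and 22.3 CPM under PBS and 48.8, 42.7 and 43.8 CPM under Af, so the level in every knockout library lay far below that in every WT library.

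Library KO_Af 12 stood apart from its group. Its correlation with KO_Af 13 and KO_Af 14 was 0.970 and 0.975 on the log2 scale, against 0.989 between those 2 libraries. It held 345 genes at 2-fold or more above their mean and 146 at 2-fold or more below it, with skeletal muscle and keratin genes among the former. Each result is therefore given for all 3 KO_Af libraries, with the value without KO_Af 12 where that library decides it. Within each genotype the PBS library numbers lie below the Af numbers, so exposure and library number cannot be told apart.

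A large share of the measured genes differed between the exposed and the control knockout lungs. Of 16126 genes tested 9331 (57.9%) were called, 4624 (28.7%) were called higher and 4707 (29.2%) lower at an adjusted p under 0.05. At 2-fold or more these numbers were 1337 (8.29%) and 1237 (7.67%), or 16% in either direction. Large changes were mostly rises: 98 genes rose at least 8-fold and 11 fell by that much, and at 32-fold or more there were 15 rises and 0 falls. Without KO_Af 12 the calls were 4733 higher and 4744 lower, 29.4% each. The median gene moved by -0.02. Of the genes called, 7251 kept their call and direction in each of the 6 fits that left out 1 knockout library, and among those called at 2-fold or more 2449 of 2574 did. The 3 KO_Af libraries did not overlap the 3 KO_PBS libraries for 31.1% of genes on the higher side and 31.7% on the lower side (62.9% on either), so a lack of overlap is stated below for what the values show and is common among all genes. List counts below are to be read against the 28.7% of all genes called higher and the 29.2% called lower, and list medians against -0.02.

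**Figure D1:**
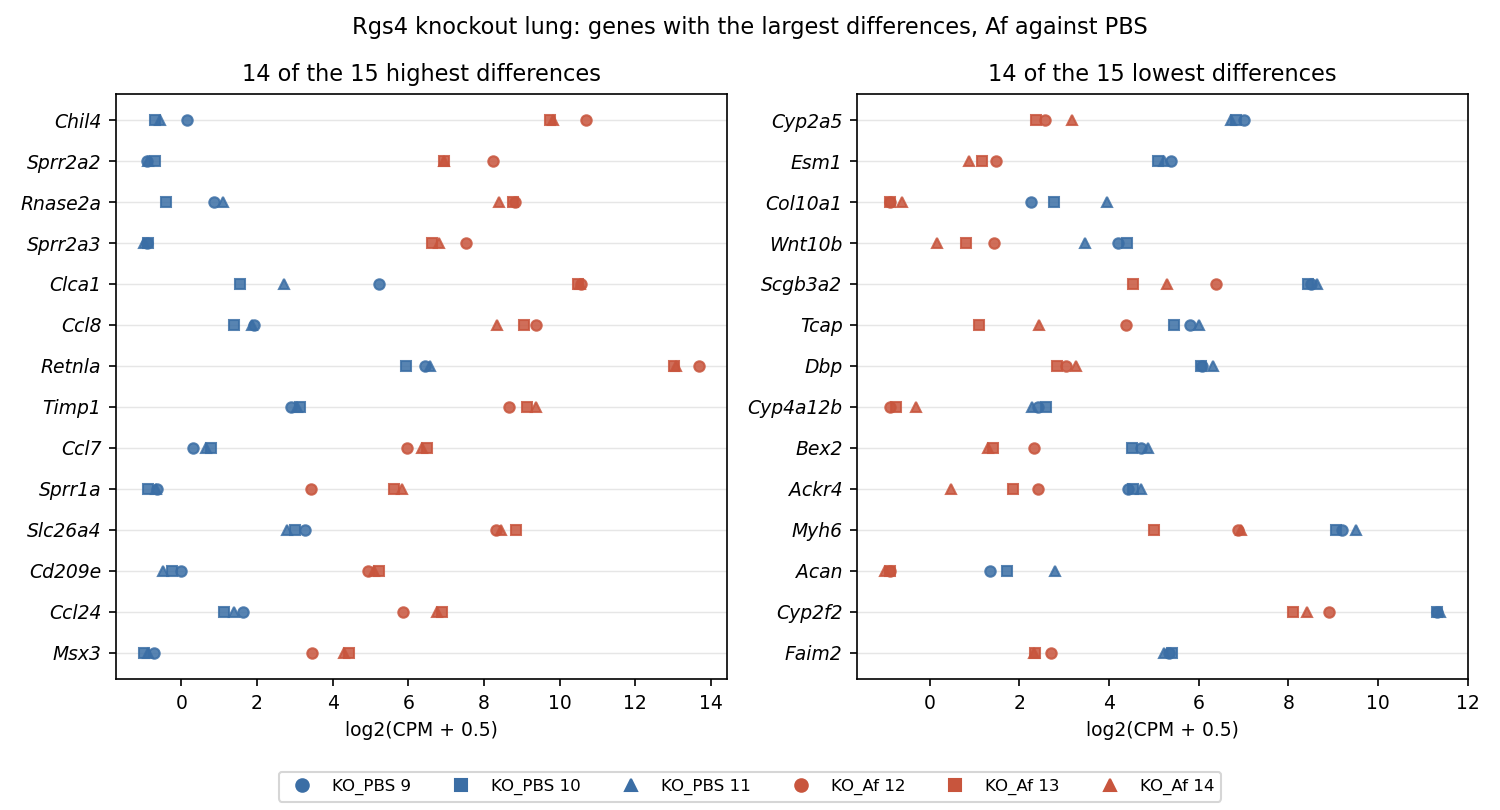
The genes named in the text among the 15 with the highest log2 difference (14 shown) and the 15 with the lowest (14 shown), with log2(CPM + 0.5) on the horizontal axis and 1 point for each of the 6 knockout libraries (3 KO_PBS and 3 KO_Af). Chil4 runs from below 1 CPM under PBS to 860.1 to 1665 CPM under Af, and Cyp2a5 from 105 to 129 down to 4.64 to 8.60 CPM. Acan and Col10a1 are spread over their KO_PBS points, with KO_PBS 11 the highest of the 3.

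Among the 15 highest rises the chitinase-like gene Chil4 (ENSMUSG00000063779.6, chromosome 3, 106201490 to 106219507, minus strand, GRCm38) stood at 0.604, 0.111 and 0.176 CPM under PBS and 1665, 860.1 and 913 CPM under Af. Rnase2a, which encodes an eosinophil-associated ribonuclease, stood at 1.31, 0.260 and 1.63 CPM under PBS and 455, 438 and 337 CPM under Af (log2 8.15 ± 0.34 SE, adjusted p = 4.6e-08). Timp1, an inhibitor of matrix metalloproteinases, stood at 6.93, 8.29 and 7.78 CPM under PBS and 403, 563 and 663 CPM under Af (log2 6.03 ± 0.33 SE, adjusted p = 1.6e-07). For all of these the lowest KO_Af library was far above the highest KO_PBS library. Chil4 and its neighbour Chil3 are near-identical copies, so their reads may be split between them, and the PBS level of Chil4 lay at a few reads, so that its difference depends on the pseudocount. The chemokine gene Ccl7, which draws monocytes and eosinophils, was at 0.746, 1.23 and 1.05 CPM under PBS and 62.5, 89.8 and 81.4 CPM under Af. The homeobox gene Msx3 stood at 0.107, 0 and 0.0440 CPM under PBS and 10.5, 21.1 and 19.2 CPM under Af.

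Among the falls, Wnt10b, a Wnt ligand, stood at 18.0, 20.5 and 10.5 CPM under PBS and 2.20, 1.24 and 0.617 CPM under Af (log2 -3.23 ± 0.39 SE, adjusted p = 3.5e-05). Faim2, which encodes an inhibitor of Fas-mediated cell death, stood at 39.7, 42.1 and 37.2 CPM under PBS and 6.06, 4.6 and 4.55 CPM under Af (log2 -2.86). Neither overlapped between the groups. Bex2 and Cyp4a12b fell by a similar factor (log2 -3.02 and -3.08). The cartilage genes Col10a1 (4.26, 6.35 and 15.0 CPM under PBS and 0.0393, 0.0460 and 0.154 CPM under Af) and Acan (2.03, 2.79 and 6.46 CPM under PBS and 0.0393, 0.0460 and 0 CPM under Af) were also among the 15 lowest, with KO_PBS 11 the highest library for both. Their calls were not stable: Col10a1 lost it without KO_PBS 11 (log2 -3.31, adjusted p = 0.055), and Acan lost it without KO_PBS 10, KO_PBS 11, KO_Af 12, KO_Af 13 or KO_Af 14 (adjusted p up to 0.089). Cartilage comes with the airway wall in a lung sample, and how much of it each sample held was not tested. The 15 genes of highest CPM that moved at least 2-fold, a choice that also favours long transcripts, included the complement gene C3, the lysozyme gene Lyz2, the hypoxia-responsive endothelial factor Epas1, the actin-severing protein gene Gsn and the fibrillar collagen gene Col3a1.

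**Figure D2:**
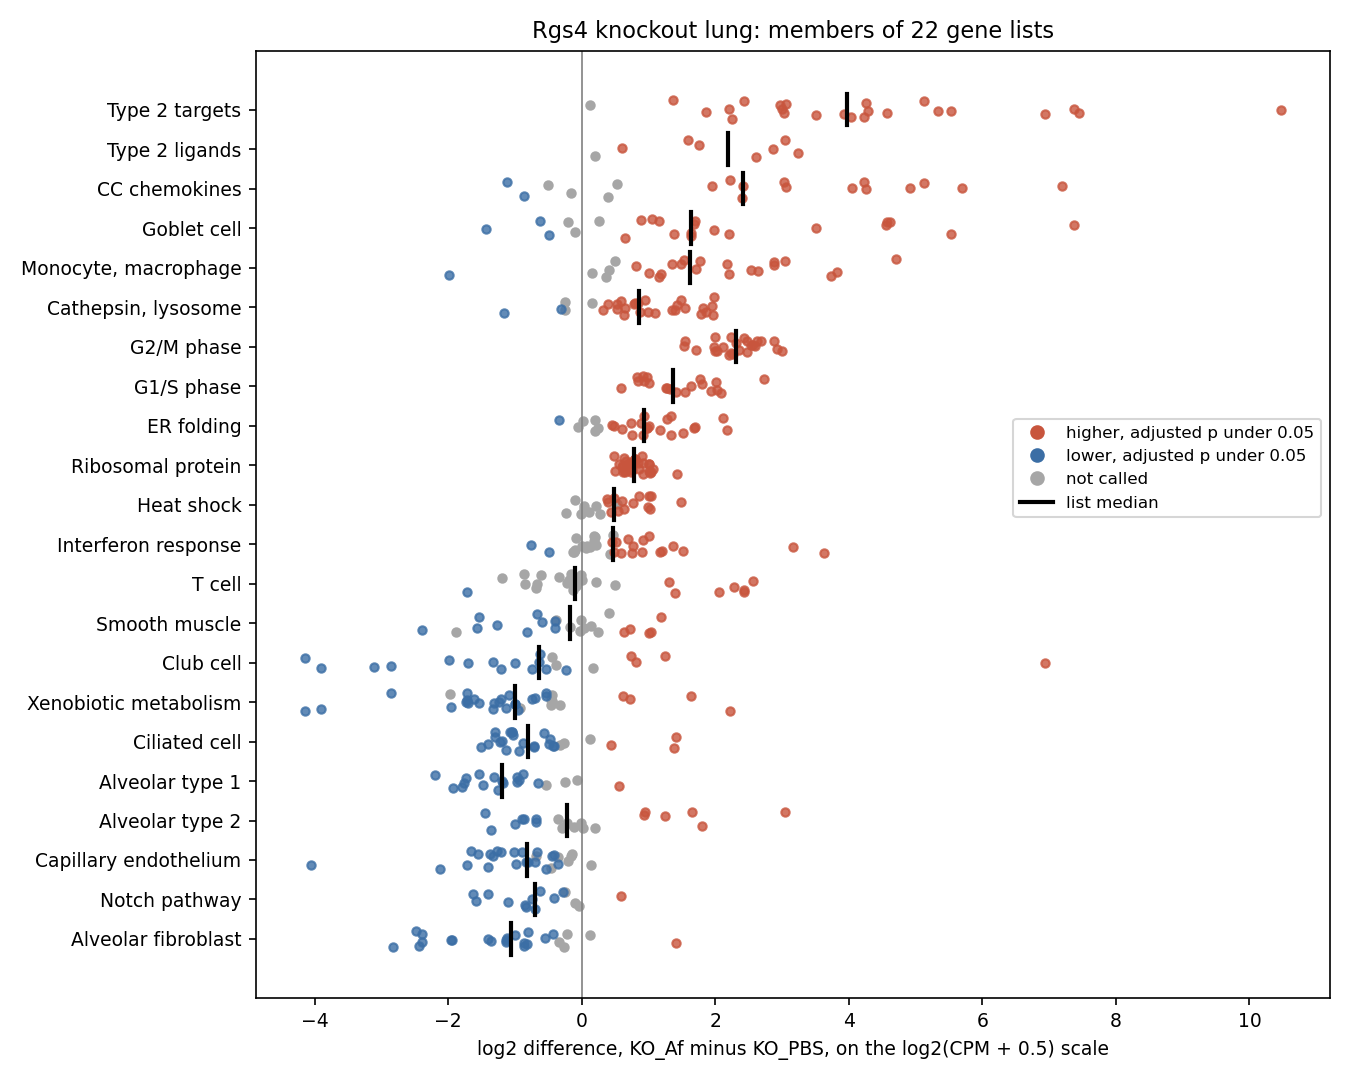
Log2 difference of each tested member of 22 gene lists on the horizontal axis, 1 point for each gene, with red for genes called higher, blue for genes called lower and grey for the rest, and a black bar at the list's median. The lists of type 2 targets and of genes of late cell cycle lie wholly or almost wholly to the right, and those of capillary endothelium and alveolar fibroblasts almost wholly to the left.

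Type 2 cytokines were themselves measurable in the knockout lung. Of 8 tested ligands 7 rose and 0 fell, with a median log2 difference of 2.19 against -0.02 over all genes. Il33, the alarmin stored in epithelial nuclei, stood at 57.4, 58.9 and 56.8 CPM under PBS and 428, 549 and 472 CPM under Af (log2 3.05 ± 0.12 SE, adjusted p = 4.6e-08). Il5, the growth factor of eosinophils, stood at 0.142, 0.0743 and 0.132 CPM under PBS and 3.03, 4.83 and 2.31 CPM under Af, and Il13, which drives mucus production, at 0.142, 0.0372 and 0 CPM under PBS and 3.85, 10.2 and 2.62 CPM under Af, with KO_Af 13 the highest for both. Il4, which turns B cells to immunoglobulin E, reached only 1.34 to 3.08 CPM under Af (log2 1.59). All 3 interleukins lay within a few reads of 0 under PBS, and none overlapped between the groups. Areg, an epidermal growth factor family ligand made by innate lymphoid and regulatory T cells, stood at 1.63, 1.15 and 1.01 CPM under PBS and 13.6, 11.1 and 12.1 CPM under Af (log2 2.87). Il10, an anti-inflammatory cytokine, rose as well (log2 1.76). Tslp, the other epithelial alarmin measured, did not pass the test (log2 0.20, adjusted p = 0.35). Csf2 was called (log2 0.60) but lost the call without KO_PBS 10 (adjusted p up to 0.054).

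Receptors and signal brakes of the same pathway rose beside the ligands, 15 of 18 with 1 lower. The decoy receptor gene Il13ra2, which binds interleukin 13 without signalling, went from 1 read in the 3 PBS libraries together to 6.49, 8.23 and 7.29 CPM under Af. Il1rl1, the receptor of interleukin 33, stood at 9.84, 9.55 and 9.76 CPM under PBS and 35.7, 36.8 and 35.1 CPM under Af (log2 1.83 ± 0.10 SE, adjusted p = 1.6e-07), with very little spread within either group. The feedback inhibitors Socs1 (log2 2.10), Socs3 (log2 1.87) and Cish (log2 1.57), which block cytokine receptor signalling, rose, and KO_Af 12 was lower than KO_Af 13 and KO_Af 14 for Socs3, at 103, 208 and 227 CPM. Crlf2, the receptor of thymic stromal lymphopoietin, rose by less (log2 0.77), as did the shared chain gene Csf2rb (log2 0.96). The member called lower was Gata3, the T helper 2 factor, at 16.1, 14.6 and 16.1 CPM under PBS and 6.84, 13.2 and 8.40 CPM under Af (log2 -0.74), and it lost the call in 5 of the 6 fits that left out a knockout library, all but that without KO_Af 13 (adjusted p up to 0.12).

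Targets of interleukins 4 and 13 moved most. Of 24 listed targets 23 rose, with a median log2 difference of 3.97, and their summed level was 913 to 1121 CPM under PBS and 17832 to 23855 CPM under Af. Ccl24, an eosinophil chemokine made by macrophages, stood at 2.59, 1.67 and 2.11 CPM under PBS and 57.6, 118 and 109 CPM under Af (log2 5.13 ± 0.28 SE, adjusted p = 1.6e-07). Ccl11, the eosinophil chemokine of stromal cells, stood at 6.33, 5.50 and 5.63 CPM under PBS and 126, 112 and 124 CPM under Af (log2 4.26), and Cd209e, a lectin of the DC-SIGN family, at 0.498, 0.334 and 0.220 CPM under PBS and 30.3, 36.7 and 33.9 CPM under Af (log2 5.33). All 3 were without overlap, and KO_Af 12 was the lowest of its group for Ccl24 and Cd209e and the highest for Ccl11. Retnlb, a secreted resistin-like protein of goblet cells, was read once under PBS and stood at 10.1, 8.92 and 9.68 CPM under Af. Itln1, which encodes a sugar-binding lectin of mucus, stood at 1.24, 0.780 and 1.19 CPM under PBS and 44.4, 34.4 and 31.9 CPM under Af (log2 4.57). Retnla rose 123-fold to 13222, 8359.9 and 8709 CPM. The member that was not called was Postn, a matrix protein that interleukin 13 induces in human airway, at 384, 399 and 416 CPM under PBS and 358, 530.4 and 435 CPM under Af.

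Promoters of these targets were read for the palindrome that STAT6 recognises. The search used TTC, any 4 bases and then GAA, the same on both strands, in RefSeq promoters (GRCm38.p6, 250 bases before to 50 after each start). It was present in 6 of 19 promoters of the listed targets (31.6%), against 5.43% of 14633 promoters of tested genes. By gene this was 5 of 16, since Clec7a has overlapping promoters that both match. The 15 highest genes are not a separate set, since they share Retnla, Cd209e and Ccl24 among others with the listed targets. The palindrome was present in 4 of 11 of their promoters (36.4%), and the Retnla and Cd209e matches enter both counts. The 200 bases before the start are shown for 3 of the genes that rose, with the match in capitals, since they show how close to the start it lies: it begins 145 bases before the start in Retnla (chr16:48842409-48842608, plus strand), 79 in Cd209e (chr8:3854287-3854486, minus strand) and 82 in Pdcd1lg2 (chr19:29410719-29410918, plus strand).
Retnla: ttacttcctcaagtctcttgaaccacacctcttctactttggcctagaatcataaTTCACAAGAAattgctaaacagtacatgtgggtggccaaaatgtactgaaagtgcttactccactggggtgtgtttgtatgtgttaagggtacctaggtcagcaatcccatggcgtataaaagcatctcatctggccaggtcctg
Cd209e: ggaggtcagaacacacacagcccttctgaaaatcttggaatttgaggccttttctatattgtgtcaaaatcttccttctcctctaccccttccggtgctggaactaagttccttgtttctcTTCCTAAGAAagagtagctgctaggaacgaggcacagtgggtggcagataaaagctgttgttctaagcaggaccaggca
Pdcd1lg2: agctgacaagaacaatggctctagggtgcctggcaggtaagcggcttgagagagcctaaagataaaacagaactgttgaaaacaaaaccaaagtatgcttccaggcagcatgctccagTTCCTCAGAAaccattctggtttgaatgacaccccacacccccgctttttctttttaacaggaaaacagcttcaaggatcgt
Pdcd1lg2, a ligand of the inhibitory receptor PD-1 on myeloid cells, stood at 0.817, 1.11 and 0.879 CPM under PBS and 21.4, 41.6 and 20.4 CPM under Af (log2 4.23). A match of letters is a description of the window and does not show binding.

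Polyamine and arginine genes were listed together with the chitinase and resistin families, and of the 19 tested 15 rose and none fell. Arg2, the mitochondrial arginase, stood at 9.60, 11.1 and 9.54 CPM under PBS and 48.6, 41.6 and 51.9 CPM under Af (log2 2.17 ± 0.16 SE, adjusted p = 1.2e-06). The polyamine enzymes Odc1 (log2 1.65) and Srm (log2 1.59), which act on the ornithine that arginases make, rose about 3-fold. Chia1, the acidic mammalian chitinase, stood at 74.7, 47.5 and 69.5 CPM under PBS and 1212, 904 and 802 CPM under Af (log2 3.92). None of these overlapped. Nos2, the inducible nitric oxide synthase that competes for arginine, did not pass the test (log2 0.34, adjusted p = 0.24).

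Goblet cell genes rose in the knockout lung, 17 of 23 with 3 lower, and in bulk RNA more cells of a type and more RNA per cell cannot be told apart, here or below. Spdef, the transcription factor of goblet cell fate, stood at 1.63, 1.52 and 1.67 CPM under PBS and 7.0, 5.56 and 5.63 CPM under Af (log2 1.63 ± 0.15 SE, adjusted p = 4.2e-06). Agr2, the disulfide isomerase that folds mucins, stood at 2.10, 2.30 and 4.18 CPM under PBS and 134, 50.4 and 72.3 CPM under Af (log2 4.61), highest in KO_Af 12. Both mucin genes rose: Muc5ac, the inducible mucin, stood at 2.45, 3.12 and 1.49 CPM under PBS and 53.9, 86.6 and 58.9 CPM under Af (log2 4.56), and Muc5b, the mucin of resting airways, at 49.6, 53.4 and 38.8 CPM under PBS and 147, 192 and 229 CPM under Af (log2 1.98). Neither overlapped between the groups. Pigr, which carries immunoglobulin A across the epithelium, stood at 121, 154 and 134 CPM under PBS and 413, 412 and 497 CPM under Af (log2 1.69). Slc26a4, the anion exchanger pendrin, rose 46.1-fold, and Clca1, a secreted mucus protein, stood at 37.1, 2.42 and 6.02 CPM under PBS and 1521, 1431 and 1499 CPM under Af (log2 7.37). The Clca1 value depends on KO_PBS 9, the highest PBS library, and KO_PBS 10, the lowest: without them it was 8.41 and 6.57. Bpifa1, an antimicrobial protein of upper airway secretions, was the member that fell most, to 266, 104 and 219 CPM from 481, 457 and 552 CPM.

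Chemokine genes of the CC family rose broadly, 13 of 19 against 2 lower. Ccl9, a close relative of Ccl6 that attracts myeloid cells, stood at 30.8, 32.5 and 35.7 CPM under PBS and 532, 525 and 612 CPM under Af (log2 4.05 ± 0.14 SE, adjusted p = 1.9e-08), with almost no spread in either group. Ccl12, a monocyte chemoattractant, stood at 0.569, 0.706 and 0.747 CPM under PBS and 21.2, 22.1 and 21.3 CPM under Af (log2 4.23). Ccl6, a chemokine of myeloid cells, stood at 223, 254 and 281 CPM under PBS and 1309, 1083 and 1139 CPM under Af (log2 2.22), again without overlap. Ccl22, a ligand of CCR4 on T helper 2 cells, rose from a range of 5.58 to 7.92 CPM to a range of 49.2 to 69.2 CPM, and its receptor gene Ccr4 rose as well (log2 1.26). Ccl8, a monocyte chemoattractant and ligand of CCR8, reached 669, 531 and 324 CPM. Ccl5, a chemokine of cytotoxic T cells, was not called, at 21.2, 24.8 and 20.2 CPM under PBS and 18.8, 20.2 and 19.9 CPM under Af (adjusted p = 0.55). Of 16 tested genes of the CXC and CX3C families 12 rose. Cxcl5, a neutrophil attractant of epithelium, stood at 0.960, 3.12 and 1.10 CPM under PBS and 34.9, 46.7 and 22.6 CPM under Af (log2 4.05), Cxcl1 at 4.19, 6.02 and 3.52 CPM under PBS and 29.8, 55.7 and 36.8 CPM under Af (log2 3.0), and Cxcl16, a ligand for CXCR6, at 74.6, 73.0 and 60.5 CPM under PBS and 184, 184 and 157 CPM under Af (log2 1.33). The fall in this list was Cx3cl1, the membrane-bound fractalkine of endothelium, at 88.8, 84.4 and 93.8 CPM under PBS and 16.6, 26.8 and 16.8 CPM under Af (log2 -2.15 ± 0.24 SE, adjusted p = 1.7e-05).

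Receptor genes were split, 11 of 27 higher and 6 lower. Ccr1, of monocytes and neutrophils, stood at 17.5, 24.2 and 14.6 CPM under PBS and 103, 104 and 128 CPM under Af (log2 2.57 ± 0.18 SE, adjusted p = 8.6e-07). Ccr2, of inflammatory monocytes, rose from a range of 50.3 to 60.8 CPM to a range of 107 to 145 CPM. Cx3cr1, the fractalkine receptor of patrolling monocytes, went the other way, at 25.9, 28.5 and 26.5 CPM under PBS and 7.08, 8.23 and 4.51 CPM under Af (log2 -1.99), as did its ligand. The scavenging receptors split too: Ackr1, of venules, stood at 1.28, 0.595 and 0.747 CPM under PBS and 5.51, 7.54 and 8.40 CPM under Af (log2 2.49), while Ackr4, which removes the chemokines that guide dendritic cells, stood at 21.1, 22.8 and 25.6 CPM under PBS and 4.84, 3.13 and 0.887 CPM under Af (log2 -2.98).

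Leukocyte markers were read next, list by list. Eosinophil genes rose in 7 of 11 cases (median log2 0.98). The granule gene Prg2, major basic protein, stood at 0.355, 0.520 and 1.10 CPM under PBS and 43.8, 24.4 and 30.5 CPM under Af (log2 4.86 ± 0.41 SE, adjusted p = 2.5e-06), and Epx, eosinophil peroxidase, went from 2 reads in all PBS libraries to 13.8, 6.99 and 5.4 CPM. Ear6, an eosinophil ribonuclease, stood at 0.924, 1.08 and 1.58 CPM under PBS and 19.3, 23.7 and 27.1 CPM under Af (log2 3.82), and the eotaxin receptor gene Ccr3 at 13.1, 8.70 and 20.9 CPM under PBS and 42.2, 31.4 and 24.2 CPM under Af (log2 1.21). The groups were apart for each of these, closest for Ccr3, where KO_PBS 11 and KO_Af 14 differed by little. The member that fell was Adgre4, an adhesion receptor of myeloid cells, at 22.8, 18.5 and 23.2 CPM under PBS and 13.6, 10.3 and 9.29 CPM under Af (log2 -0.94).

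Neutrophil genes rose in 9 of 16 cases and fell in none (median log2 0.83). Il1r2, the decoy receptor of interleukin 1, stood at 1.17, 1.75 and 1.27 CPM under PBS and 15.3, 14.4 and 39.2 CPM under Af (log2 3.49 ± 0.36 SE, adjusted p = 1.1e-05), highest in KO_Af 14. Retnlg, a resistin-like gene of neutrophils, stood at 42.3, 37.2 and 59.9 CPM under PBS and 319, 184 and 198 CPM under Af (log2 2.30), and Mmp8, the neutrophil collagenase, at 7.50, 12.9 and 7.82 CPM under PBS and 20.4, 24.1 and 53.1 CPM under Af (log2 1.65). Defining granulocyte genes moved less: S100a8 and S100a9, the calprotectin subunits, overlapped between the groups (log2 0.56 and 0.45) and were not called. Mast cell and basophil genes rose in 9 of 14 cases (median log2 0.85). The mucosal mast cell proteases Mcpt1 (0, 0.111 and 0.0879 CPM under PBS and 4.88, 12.9 and 3.32 CPM under Af) and Mcpt2 (0.0355, 0.0372 and 0.176 CPM under PBS and 3.42, 5.01 and 1.73 CPM under Af) and the basophil protease Mcpt8 (0.675, 1.34 and 0.967 CPM under PBS and 2.87, 7.12 and 5.20 CPM under Af) were all near the floor under PBS. Kit, which capillary endothelium also expresses, fell (log2 -1.27), as did Gata2 (log2 -0.77).

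Of 24 genes of monocytes and recruited macrophages 19 rose and 1 fell (median log2 1.62), and their summed level was 1626 to 1769 CPM under PBS and 4426 to 5574 CPM under Af. Spp1, osteopontin, stood at 56.2, 60.8 and 66.1 CPM under PBS and 785, 1052 and 655 CPM under Af (log2 3.73 ± 0.20 SE, adjusted p = 1.6e-07). Mmp12, the macrophage elastase, stood at 22.1, 21.2 and 23.3 CPM under PBS and 408, 328 and 249.6 CPM under Af (log2 3.83). Neither overlapped between the groups. Cd14, the lipopolysaccharide co-receptor, rose 3.26-fold and Cd68, a lysosomal glycoprotein of phagocytes, 2.55-fold. KO_Af 12 was the lowest of its group for the scavenger receptor Cd163, at 14.3, 9.85 and 9.93 CPM under PBS and 137, 485 and 420.1 CPM under Af, and for the mannose receptor Mrc1, at 109.8, 113 and 108 CPM under PBS and 260.1, 786 and 711 CPM under Af. Genes of resident alveolar macrophages were split, 6 of 18 higher and 5 lower (median log2 -0.16), shares close to those of all genes. Chil3 and Fabp5 rose (log2 4.03 and 1.64), while Marco, their scavenger receptor, stood at 8.28, 9.10 and 7.03 CPM under PBS and 1.61, 1.88 and 1.47 CPM under Af (log2 -2.00), and Plet1 at 71.4, 79.9 and 74.8 CPM under PBS and 41.6, 36.8 and 44.9 CPM under Af (log2 -0.87). Dendritic cell genes rose in 10 of 19 cases (median log2 0.57), among them Batf3 at 1.03, 0.966 and 1.36 CPM under PBS and 8.93, 12.4 and 9.75 CPM under Af (log2 2.74), though Clec9a, a marker of the cross-presenting subset that Batf3 directs, fell to 16.4 to 20.1 CPM from 33.8 to 38.5 CPM.

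T cell genes divided by function. Of 28 genes 7 rose, a share below that of all genes, and 1 fell (median log2 -0.10), and their summed level did not rise: it was 444 to 583 CPM under PBS and 389.8 to 442 CPM under Af. The 7 that rose are all genes of activated or regulatory T cells. Il2ra, the high-affinity interleukin 2 receptor chain, stood at 5.72, 4.72 and 4.13 CPM under PBS and 20.0, 31.3 and 25.6 CPM under Af (log2 2.28 ± 0.17 SE, adjusted p = 1.1e-06). Ctla4, an inhibitory receptor, stood at 0.604, 1.08 and 0.791 CPM under PBS and 5.74, 7.44 and 6.55 CPM under Af (log2 2.43), and Tnfrsf4, the costimulatory receptor OX40, at 1.03, 1.23 and 0.791 CPM under PBS and 8.26, 7.77 and 6.94 CPM under Af (log2 2.43). Pdcd1, Tigit, Tnfrsf18 and Icos, receptors that tune activated T cells, rose as well (log2 2.56, 2.06, 1.3 and 1.40). Of the receptor chains that every T cell carries Cd3e was not called and overlapped between the groups: it stood at 11.4, 14.0 and 13.9 CPM under PBS and 13.4, 11.1 and 9.18 CPM under Af (log2 -0.22, adjusted p = 0.64). Lef1, a factor of naive T cells, fell, at 21, 25.1 and 23.5 CPM under PBS and 6.76, 6.99 and 6.32 CPM under Af (log2 -1.72).

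Of 14 natural killer and cytotoxic genes 1 rose and 2 fell (median log2 -0.15), fewer in either direction than among all genes. Gzmb, the killing protease granzyme B, stood at 4.44, 6.39 and 4.35 CPM under PBS and 7.98, 18.0 and 13.1 CPM under Af (log2 1.23), while S1pr5, the receptor by which natural killer cells leave tissue, stood at 6.11, 5.05 and 4.53 CPM under PBS and 0.983, 1.98 and 1.20 CPM under Af (log2 -1.63). Of 17 B cell and plasma cell genes 4 rose and 2 fell (median log2 -0.03), again below the shares of all genes. Mzb1, a chaperone for immunoglobulin, stood at 5.05, 4.2 and 4.97 CPM under PBS and 38.3, 16.7 and 20.8 CPM under Af (log2 2.21), Derl3 rose too (log2 1.88), and Prdm1, a master regulator of plasma cells that other cells also use, stood at 31.6, 30.6 and 29.6 CPM under PBS and 9.75, 17.1 and 13.0 CPM under Af (log2 -1.21). The B cell receptor gene Cd79a was not called, at 72.3, 64.2 and 65.2 CPM under PBS and 72.3, 53.4 and 45.7 CPM under Af (adjusted p = 0.61). Immunoglobulin constant regions were called in both directions, and most of the 12 tested were not called. When 1 knockout library was left out 2 to 4 of them were called higher. Ighg1 is of the heavy chain class that interleukin 4 favours in mice along with immunoglobulin E. It stood at 8.60, 10.4 and 6.95 CPM under PBS and 33.3, 13.3 and 25.8 CPM under Af (log2 1.35). In WT lungs it stood at 87.2, 103 and 55.8 CPM under PBS and 28.8, 66.4 and 37.7 CPM under Af (log2 -0.93). The knockout response of Ighg1 minus that of WT was 2.27 on the log2 scale and was not called (adjusted p = 0.12). Ighe, of immunoglobulin E, was at 0.892 to 1.85 CPM over the 6 knockout libraries and was not called (log2 0.17).

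Innate recognition of fungi was touched at several points, with 17 of 26 genes higher and 2 lower (median log2 0.87). Ptx3, the soluble pentraxin that coats Aspergillus conidia, stood at 0.533, 0.929 and 0.571 CPM under PBS and 13.2, 5.65 and 11.6 CPM under Af (log2 3.11 ± 0.31 SE, adjusted p = 9.8e-06). Clec7a, the beta-glucan receptor dectin-1, stood at 74.1, 87.0 and 76.6 CPM under PBS and 248, 197 and 176 CPM under Af (log2 1.37), and Sftpd, the collectin surfactant protein D, at 627, 698 and 641 CPM under PBS and 1740.2, 1418 and 1501 CPM under Af (log2 1.24). Fcgr3, an activating immunoglobulin G receptor, stood at 38.5, 36.9 and 37.8 CPM under PBS and 243, 220.3 and 227 CPM under Af (log2 2.59). All 4 were without overlap. Bcl10, which relays dectin-1 signals through CARD9, rose with hardly any spread, at 37.4, 37.9 and 37.2 CPM under PBS and 76.7, 77.3 and 77.1 CPM under Af, whereas Card9 itself was not called (log2 0.15, adjusted p = 0.43). Clec1a, a receptor for fungal melanin on endothelium, fell to 93.1, 96.3 and 91.4 CPM from 212, 220.3 and 192 CPM.

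Complement genes rose in 15 of 27 entries (median log2 0.41). The 3 chains of C1q moved together: C1qb stood at 42.4, 33.0 and 40.5 CPM under PBS and 238, 249 and 194 CPM under Af (log2 2.54 ± 0.17 SE, adjusted p = 6.5e-07), and C1qa and C1qc had log2 differences of 2.18 and 2.21. C3, the central component, stood at 1358, 1373 and 1105 CPM under PBS and 2917, 6563 and 6519 CPM under Af (log2 1.97), lowest in KO_Af 12. Its receptor gene C3ar1 stood at 11.3, 8.81 and 10.8 CPM under PBS and 76.3, 122 and 99.2 CPM under Af (log2 3.19), and Cfp, properdin, which stabilises the alternative pathway convertase, at 24.0, 19.6 and 21 CPM under PBS and 85.5, 94.8 and 102 CPM under Af (log2 2.10). Again no library of either group overlapped the other. Cfi, which inactivates C3b, went from under 1 CPM to 11.2, 10.3 and 9.21 CPM, and C2 fell (log2 -0.78).

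Of 29 genes of killing and of mucosal defence 18 rose and 6 fell (median log2 1.14). Among the cytosolic subunits of the phagocyte oxidase, Ncf4 rose to 71.0, 66.1 and 65.9 CPM from 25.6, 29.1 and 27.0 CPM (log2 1.3 ± 0.10 SE, adjusted p = 1.4e-06), and Ncf1 rose with log2 1.21. The catalytic subunit gene Cybb went the other way, at 205, 217 and 195 CPM under PBS and 137, 144 and 131 CPM under Af (log2 -0.58, adjusted p = 0.002). The epithelial oxidase gene Duox1 stood at 0.462, 0.483 and 0.308 CPM under PBS and 4.99, 11.5 and 7.33 CPM under Af, and Nox4, a hydrogen peroxide source of stromal cells, at 87.8, 94.9 and 90.9 CPM under PBS and 44.1, 36.8 and 42.6 CPM under Af (log2 -1.14). The acute-phase gene Saa3 stood at 14.0, 34.2 and 14.9 CPM under PBS and 345, 357 and 584 CPM under Af (log2 4.39), and Wfdc17, a small secreted protein of activated myeloid cells, at 8.92, 11.9 and 8.57 CPM under PBS and 134, 66.2 and 80.7 CPM under Af (log2 3.14). Lyz2, the lysozyme of macrophages and type 2 cells, fell, at 4495, 4543 and 4634 CPM under PBS and 3282, 1262 and 1351 CPM under Af (log2 -1.36, adjusted p = 0.005), with KO_Af 12 the nearest to the PBS level.

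Lysosomal genes rose in 25 of 30 cases (median log2 0.86), and their summed level was 6808 to 7179.7 CPM under PBS and 12542 to 15218 CPM under Af. Ctsb, cathepsin B, stood at 656, 586 and 642 CPM under PBS and 2211, 2585 and 2054 CPM under Af (log2 1.86 ± 0.12 SE, adjusted p = 4.5e-07). Ctsl (log2 1.98), Lgmn, which activates cathepsins (log2 1.96), and Cd63, a lysosomal tetraspanin (log2 1.78), rose by a like amount. Of 23 antigen presentation genes 11 rose and 2 fell (median log2 0.33). Ctss, the protease that trims the invariant chain, stood at 205, 219 and 231 CPM under PBS and 894, 836 and 619 CPM under Af (log2 1.82). B2m, the light chain of class I molecules, stood at 1147, 1035 and 1140.0 CPM under PBS and 1863, 1611 and 1525 CPM under Af (log2 0.59), and the peptide loading gene H2-DMa at 53.0, 52.7 and 56.6 CPM under PBS and 92.0, 89.2 and 77.4 CPM under Af (log2 0.66). Cd1d1, which presents lipids to natural killer T cells, fell (log2 -1.09).

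Interferon-stimulated genes rose in 16 of 32 cases, or 21 without KO_Af 12 (median log2 0.46), and the 2 largest log2 differences were those of chemokines. Cxcl9, a CXCR3 ligand induced by interferon gamma, stood at 1.42, 0.892 and 0.835 CPM under PBS and 7.87, 26.1 and 30.1 CPM under Af (log2 3.63, and 4.22 without KO_Af 12), and Cxcl10 at 1.49, 0.929 and 0.527 CPM under PBS and 7.12, 18.2 and 14.5 CPM under Af (log2 3.17). The ubiquitin-like Isg15 stood at 11.4, 10.4 and 9.98 CPM under PBS and 28.8, 29.2 and 36.2 CPM under Af (log2 1.52 ± 0.11 SE, adjusted p = 1.1e-06). Zbp1, a sensor of Z-form nucleic acid, rose (log2 1.37), and Mx1 rose by log2 0.92. In the interleukin 1 and interleukin 17 families 10 of 21 genes rose (median log2 0.55). Il1rn, the interleukin 1 receptor antagonist, stood at 15.8, 20.3 and 15.3 CPM under PBS and 107, 123 and 109.5 CPM under Af (log2 2.7 ± 0.15 SE, adjusted p = 1.9e-07), whereas the agonist gene Il1b overlapped between the groups, at 40.5, 80.2 and 34.2 CPM under PBS and 47.3, 70.9 and 58.7 CPM under Af (adjusted p = 0.58). Il6, a driver of the acute-phase response, stood at 0.284, 0.929 and 0.791 CPM under PBS and 17.7, 20.8 and 15.0 CPM under Af (log2 4.01), and Il18 fell (log2 -0.82).

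Club cells, the secretory cells of mouse bronchioles, clear inhaled toxins with cytochromes P450. Of 21 genes of these cells 14 fell and 4 rose (median log2 -0.64). Cyp2f2, a cytochrome that defines them in mice, stood at 2535, 2537 and 2684 CPM under PBS and 477, 274 and 343 CPM under Af (log2 -2.86 ± 0.20 SE, adjusted p = 7.3e-07). Scgb3a2, a secretoglobin, stood at 363, 346 and 396 CPM under PBS and 82.8, 22.7 and 39.0 CPM under Af (log2 -3.12), with KO_Af 12 the highest of its group, and Cyp4b1 at 659, 599.5 and 556 CPM under PBS and 199.8, 157 and 203 CPM under Af (log2 -1.70). None of the 3 overlapped. The defining secretoglobin Scgb1a1 fell by less, at 15466, 15017 and 16926 CPM under PBS and 12895, 6597 and 9792 CPM under Af (log2 -0.75), and was not called in 5 of the 6 fits that left out a library, all but that without KO_Af 12 (adjusted p up to 0.12). The wider list of xenobiotic enzymes fell in 23 of 35 cases, or 30 without KO_Af 12 (median log2 -1.01), and its summed level was 8790.3 to 8825 CPM under PBS and 2815 to 3992 CPM under Af. Gstm1, a glutathione transferase, stood at 623, 592 and 626 CPM under PBS and 230.1, 159 and 179.5 CPM under Af (log2 -1.71), and Cyp2d22 at 60.3, 60.1 and 58.9 CPM under PBS and 13.9, 14.2 and 17.1 CPM under Af (log2 -1.96). Cbr2, a carbonyl reductase of club and type 2 cells, stood at 2641, 2595 and 2961 CPM under PBS and 1015, 526 and 612 CPM under Af (log2 -1.98). The 4 that rose included Gsto1, a glutathione transferase of another class (log2 1.63), and Cyp1b1, a target of the aryl hydrocarbon receptor (log2 2.22).

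Ciliated cell genes fell in 20 of 26 cases (median log2 -0.80), and their summed level was 1079 to 1177 CPM under PBS and 788 to 1003 CPM under Af. Ak7, an adenylate kinase of the axoneme, stood at 32.8, 30.2 and 25.8 CPM under PBS and 14.5, 13.7 and 14.0 CPM under Af (log2 -1.04 ± 0.11 SE, adjusted p = 1.1e-05). Hydin, of the central pair of microtubules, stood at 25.6, 24.3 and 19.3 CPM under PBS and 6.10, 7.77 and 9.60 CPM under Af (log2 -1.51), and the assembly factor Ccdc39 at 17.3, 18.7 and 16.7 CPM under PBS and 8.53, 7.08 and 8.71 CPM under Af (log2 -1.07). The groups were apart for all 3. Foxj1, the master factor of motile cilia, was not called, at 73.3, 78.7 and 75.7 CPM under PBS and 86.4, 78.1 and 85.2 CPM under Af (log2 0.13, adjusted p = 0.14). The 3 members that rose included a pair of regulators of centriole amplification in cells that are about to grow cilia, Mcidas (1.35, 1.19 and 0.659 CPM under PBS and 4.6, 4.27 and 2.27 CPM under Af) and Ccno (4.37, 4.27 and 4.92 CPM under PBS and 16.9, 12.1 and 9.60 CPM under Af). RFX factors bind an X-box in cilia genes, and its arm GTTGCC, searched on both strands, was in 11 of 23 promoters of the list (47.8%) against 12.9% of promoters of all tested genes. The Hydin promoter is shown because its match, GGCAAC on the strand printed, begins only 13 bases before the start (GRCm38.p6, chr8:110266777-110266976, plus strand).
Hydin: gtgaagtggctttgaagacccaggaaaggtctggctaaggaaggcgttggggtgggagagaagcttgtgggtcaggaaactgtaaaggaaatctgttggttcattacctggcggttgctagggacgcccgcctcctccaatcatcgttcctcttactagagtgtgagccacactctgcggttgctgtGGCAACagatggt

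In the alveolus the flat type 1 cells, which carry gas exchange, lost expression in 16 of 20 genes and gained it in 1 (median log2 -1.19). Sec14l3, a lipid transfer protein, stood at 1209.5, 1258 and 871 CPM under PBS and 373, 211 and 174 CPM under Af (log2 -2.20 ± 0.27 SE, adjusted p = 3.7e-05). Col4a3, of alveolar basement membrane, stood at 333, 335 and 145 CPM under PBS and 76.6, 74.2 and 68.1 CPM under Af (log2 -1.79), and Cav1, caveolin, at 1335, 1262 and 1143 CPM under PBS and 738, 616 and 559 CPM under Af (log2 -0.97). No KO_Af library reached a KO_PBS library. KO_PBS 11 was low for this list, with a summed level of 8678 CPM against 12948 and 13124 CPM, and the classical marker Ager, at 2105, 2149 and 1315 CPM under PBS and 1440.2, 779.7 and 698 CPM under Af, lost its call without KO_PBS 9, KO_PBS 10 or KO_Af 14 (adjusted p up to 0.061). Type 2 cells, which make surfactant, were divided, 6 of 21 higher and 7 lower (median log2 -0.22), shares close to those of all genes. Abca3, the lipid pump of lamellar bodies (log2 -0.68), Lpcat1, which makes surfactant lipid (log2 -0.86), and the fate factor Etv5 (log2 -0.89) fell, while Chil1 rose (log2 0.95), and the defining Sftpc overlapped, at 10342, 9607 and 10819 CPM under PBS and 13642, 5709 and 6630.0 CPM under Af (adjusted p = 0.41).

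Genes of basal cells and of squamous epithelium were almost absent in the KO_PBS libraries, with a summed level of 17.3 to 18.7 CPM, and reached 298 to 889 CPM in KO_Af. In KO_Af 13 and KO_Af 14 most of that came from genes of small proline-rich proteins, and in KO_Af 12 also from keratins. Small proline-rich proteins cross-link the cell envelope of stressed epithelium. Sprr2a2 had at most 3 reads in any KO_PBS library and stood at 302, 122 and 123 CPM under Af. Sprr2a3 had at most 1 read in any KO_PBS library and stood at 183, 99.1 and 113 CPM under Af. Of the WT_PBS libraries, WT_PBS 17 held Sprr2a2 at 306 CPM and Sprr2a3 at 166 CPM, while Sprr2a2 stood at 0.290 and 0.130 CPM in WT_PBS 15 and 16. Sprr2a2 and Sprr2a3 are near-identical copies, so how the reads divide between them is uncertain. Sprr1a stood at 0.142, 0.0372 and 0.132 CPM under PBS and 10.2, 48.6 and 56.7 CPM under Af (log2 5.69, and 6.46 without KO_Af 12, its lowest Af library). Trp63, the basal cell factor p63, stood at 0.924, 1.67 and 1.10 CPM under PBS and 6.45, 4.37 and 3.82 CPM under Af (log2 1.63, adjusted p = 0.0027). The basal cell keratin gene Krt14 stood at 0.391, 0.409 and 0.176 CPM under PBS and 5.62, 2.62 and 4.36 CPM under Af (log2 2.47, adjusted p = 0.025). That call was lost without KO_Af 12, KO_Af 14 or any 1 of the KO_PBS libraries (adjusted p up to 0.071). Krt4, of stratified mucosa, stood at 0.0711, 0.297 and 0.659 CPM under PBS and 131, 1.19 and 0.771 CPM under Af. KO_Af 12 was the only knockout library above 2 CPM. Krt4 was not called (adjusted p = 0.22), and WT_PBS 17 held it at 174 CPM. Of 14 genes listed for ionocytes, neuroendocrine and tuft cells only 7 passed the filter on low values, of which 4 rose and 3 fell (median log2 0.45). Dclk1, a tuft cell kinase that other cells share, stood at 8.85, 7.69 and 8.22 CPM under PBS and 36.0, 49.6 and 42.2 CPM under Af (log2 2.29). Calca, which encodes a peptide of neuroendocrine cells, stood at 0.924, 0.855 and 0.703 CPM under PBS and 5.51, 2.62 and 6.17 CPM under Af (log2 1.92).

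Capillary endothelium lost expression across its list: 21 of 28 genes fell and 0 rose (median log2 -0.82), and the summed level was 14215 to 14724 CPM under PBS and 6278 to 8381 CPM under Af. Ptprb, the vascular phosphatase VE-PTP, stood at 1156, 1249 and 1109.8 CPM under PBS and 278, 424 and 437 CPM under Af (log2 -1.65 ± 0.17 SE, adjusted p = 1.0e-05). The angiopoietin receptor genes Tek and Tie1 had log2 differences of -1.72 and -0.83. Tbx2, a T-box factor shared with mesenchyme, stood at 274, 303 and 307 CPM under PBS and 96.4, 123 and 114 CPM under Af (log2 -1.41), and its relative Tbx3 had a log2 difference of -1.33. Esm1, a proteoglycan of sprouting tip cells, stood at 41.3, 33.8 and 36.7 CPM under PBS and 2.28, 1.75 and 1.35 CPM under Af (log2 -4.06 ± 0.15 SE, adjusted p = 2.3e-08). In each of these the highest KO_Af library was below the lowest KO_PBS library. Pan-endothelial genes fell by less: Cdh5, the cadherin of endothelial junctions, had a log2 difference of -0.89 and Pecam1 of -0.41.

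Genes of larger vessels and lymphatics were split, 6 of 21 higher and 8 lower (median log2 0.23). Venous adhesion molecules of inflammation rose: Selp, P-selectin, stood at 7.46, 7.28 and 6.55 CPM under PBS and 29.8, 64.1 and 60.5 CPM under Af (log2 2.7 ± 0.28 SE, adjusted p = 1.3e-05), and Sele, E-selectin, at 0.817, 0.595 and 0.396 CPM under PBS and 5.78, 7.58 and 8.33 CPM under Af (log2 2.81). Arterial genes fell: Efnb2, ephrin B2, stood at 313, 311 and 325 CPM under PBS and 96.3, 115 and 96.0 CPM under Af (log2 -1.63), and Bmx, an arterial kinase, at 15.0, 15.5 and 15.3 CPM under PBS and 5.19, 3.45 and 3.93 CPM under Af (log2 -1.76). Both directions were without overlap. The venous fate factor Nr2f2 fell too (log2 -0.67). Notch signalling sets arterial fate, and 11 of 15 Notch genes fell with 1 higher (median log2 -0.70). The ligand gene Dll4 stood at 189, 172 and 185 CPM under PBS and 50.5, 79.1 and 50.3 CPM under Af (log2 -1.63), and the mural cell receptor gene Notch3 at 171, 173 and 159.5 CPM under PBS and 42.4, 91.7 and 64.1 CPM under Af (log2 -1.41). The target Hey1 stood at 94.0, 93.0 and 91.9 CPM under PBS and 33.7, 30.0 and 28.8 CPM under Af (log2 -1.58 ± 0.10 SE, adjusted p = 4.5e-07). The single member that rose was Rbpj, the DNA-binding partner of Notch (log2 0.59), and Hes1, a target that many cells share, was not called (log2 -0.25).

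Alveolar fibroblasts hold lipid and support type 2 cells. Their list also holds genes of other stromal cells, such as the mural cell receptor gene Notch3, so its counts are not of fibroblasts alone. In it 19 of 24 genes fell (median log2 -1.06), and the summed level was 10245 to 10642 CPM under PBS and 4155 to 5049 CPM under Af. Itga8, an integrin of alveolar fibroblasts, stood at 489, 529.9 and 500.4 CPM under PBS and 107, 105 and 80.0 CPM under Af (log2 -2.39 ± 0.12 SE, adjusted p = 1.4e-07). Scube2 stood at 107, 139.6 and 123 CPM under PBS and 15.2, 21 and 15.0 CPM under Af (log2 -2.83), and Fgfr4, a fibroblast growth factor receptor, at 68.9, 79.2 and 86.0 CPM under PBS and 14.7, 19.1 and 10.6 CPM under Af (log2 -2.39). Inmt, an indolamine methyltransferase, stood at 2163, 2177 and 2324 CPM under PBS and 768, 334 and 265 CPM under Af (log2 -2.44). None overlapped. The member that rose was Plin2, which coats lipid droplets in many cells (log2 1.42).

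Of 33 matrix genes 18 rose and 5 fell (median log2 0.83). Serpina3n, a protease inhibitor of the acute phase, stood at 55.6, 62.1 and 56.0 CPM under PBS and 691, 1080.3 and 1446 CPM under Af (log2 4.14 ± 0.24 SE, adjusted p = 2.2e-07). Lox, which cross-links collagen, stood at 57.1, 63.2 and 46.8 CPM under PBS and 191, 232 and 301 CPM under Af (log2 2.09), and Thbs1, thrombospondin, at 198, 215 and 179.8 CPM under PBS and 474, 1403 and 1065 CPM under Af (log2 2.17). The fibrillar collagen gene Col3a1 stood at 667, 603 and 693 CPM under PBS and 1957, 2781 and 2432 CPM under Af (log2 1.86), and fibronectin, Fn1, at 695, 710.3 and 677 CPM under PBS and 1014, 2739.9 and 2345 CPM under Af (log2 1.43), both lowest in KO_Af 12 within their group and above every PBS library. The 5 that fell included Col4a3, Col4a4 and Col4a5, the chains of alveolar basement membrane (log2 -1.79, -1.53 and -1.67).

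Contractile genes were mixed, 5 of 23 higher and 9 lower (median log2 -0.17). Actg2, the gamma actin of smooth muscle, stood at 37.2, 41.3 and 44.4 CPM under PBS and 86.9, 102 and 92.2 CPM under Af (log2 1.19 ± 0.10 SE, adjusted p = 2.5e-06). Acta2, alpha smooth muscle actin, stood at 298, 289 and 313 CPM under PBS and 496, 481 and 424 CPM under Af (log2 0.64), and Cald1, caldesmon, at 260.0, 261 and 255 CPM under PBS and 485, 503 and 578 CPM under Af (log2 1.01). Against these Mylk, the myosin light chain kinase that starts contraction, stood at 490.5, 523 and 515 CPM under PBS and 239.7, 363 and 277 CPM under Af (log2 -0.82), and Hhip, a brake on hedgehog signals, at 48.9, 61.7 and 53.1 CPM under PBS and 13.9, 23 and 18.1 CPM under Af (log2 -1.57). Cnn1, calponin, a marker of differentiated smooth muscle, was not called, at 65.7, 68.0 and 71.4 CPM under PBS and 69.0, 70.2 and 71.3 CPM under Af (adjusted p = 0.82).

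Receptors that set airway tone, the input to the proteins Rgs4 acts on, were split: 16 of 41 rose and 12 fell (median log2 -0.02). All 3 muscarinic receptor genes tested fell. Chrm1 stood at 3.41, 1.78 and 2.59 CPM under PBS and 0.511, 0.460 and 0.231 CPM under Af (log2 -1.76). Chrm2, which is coupled to Gi, stood at 28.0, 30.4 and 25.3 CPM under PBS and 6.21, 4.18 and 9.41 CPM under Af (log2 -2.06), and Chrm3, which is coupled to Gq and contracts the muscle, at 5.65, 5.61 and 4.26 CPM under PBS and 1.89, 2.16 and 2.16 CPM under Af (log2 -1.14). Vipr2, a receptor for the relaxing peptide VIP, stood at 42.6, 36.5 and 33.8 CPM under PBS and 11.8, 9.38 and 10.5 CPM under Af (log2 -1.79 ± 0.11 SE, adjusted p = 4.2e-07), and the angiotensin receptor gene Agtr1a at 23.1, 19.1 and 22.1 CPM under PBS and 5.47, 8.32 and 6.52 CPM under Af (log2 -1.61). The groups were apart for each of these receptors. The beta-adrenergic receptor gene Adrb1 fell to 16.0, 18.1 and 15.9 CPM from 42.8, 42.3 and 43.2 CPM. Among those that rose were Bdkrb1, the inducible bradykinin receptor, at 1.88, 2.16 and 2.02 CPM under PBS and 9.28, 8.69 and 10.4 CPM under Af (log2 1.98), and Ptger4, a receptor of prostaglandin E2, at 8.60, 10.3 and 9.06 CPM under PBS and 24.6, 31.2 and 23.9 CPM under Af (log2 1.46). The purinergic receptor genes P2ry2 and P2ry6 rose as well (log2 1.54 and 1.62).

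Downstream of the receptors 16 of 31 genes of Gq and Gi signalling fell and 4 rose (median log2 -0.37). The Gq alpha subunit genes split: Gna11 stood at 116, 115 and 118 CPM under PBS and 72.8, 84.3 and 79.9 CPM under Af (log2 -0.56), while Gna15, the alpha subunit of blood cells, stood at 5.69, 5.24 and 5.98 CPM under PBS and 13.8, 14.8 and 11.2 CPM under Af (log2 1.16). Adcy8, a calcium-activated adenylyl cyclase, stood at 53.3, 51.0 and 48.5 CPM under PBS and 8.06, 17.6 and 8.83 CPM under Af (log2 -2.18 ± 0.22 SE, adjusted p = 1.1e-05), and Grk5, a kinase that silences occupied receptors, at 105, 101 and 100.4 CPM under PBS and 66.0, 62.4 and 64.5 CPM under Af (log2 -0.67). The groups were apart for all 4. Of the 17 RGS family genes tested, Rgs4 included, 5 rose and 7 fell (median log2 -0.43). Rgs1, of activated lymphocytes, stood at 3.77, 7.32 and 4.97 CPM under PBS and 21.2, 32.7 and 28.5 CPM under Af (log2 2.28), and Rgs16, induced by cytokines, at 2.59, 2.75 and 1.89 CPM under PBS and 8.89, 17.5 and 13.6 CPM under Af (log2 2.21). Rgs11, which pairs with the G beta 5 subunit, stood at 14.5, 15.2 and 13.4 CPM under PBS and 3.34, 2.94 and 3.12 CPM under Af (log2 -2.03 ± 0.15 SE, adjusted p = 9.5e-07), and its close relatives Rgs6 and Rgs9 had log2 differences of -1.65 and -1.53. Rgs3, which acts on Gq and Gi as Rgs4 does, stood at 136, 142 and 131 CPM under PBS and 68.3, 80.0 and 62.4 CPM under Af (log2 -0.96). None of these overlapped between the groups.

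Lipid mediator genes rose in 16 of 25 cases (median log2 0.70). Pla2g4c, which frees arachidonate from membranes, stood at 0.426, 0.520 and 0.308 CPM under PBS and 20.3, 15.3 and 6.44 CPM under Af, and Tbxas1, thromboxane synthase, at 15.4, 16.5 and 18.3 CPM under PBS and 49.6, 63.1 and 60.8 CPM under Af (log2 1.76 ± 0.13 SE, adjusted p = 1.1e-06). Alox5ap, the partner of 5-lipoxygenase in leukotriene synthesis, stood at 44.1, 44.6 and 47.8 CPM under PBS and 116, 86.4 and 103 CPM under Af (log2 1.15), and Ptgs1, cyclooxygenase 1, at 64.2, 73.3 and 65.8 CPM under PBS and 139, 210.2 and 181 CPM under Af (log2 1.36). None overlapped. Hpgd, which inactivates prostaglandins and is made by capillary endothelium, fell (log2 -1.20).

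Cell cycle genes rose without exception in both lists. All 25 genes of G2 and mitosis rose (median log2 2.32), as did all 20 genes of G1 and S phase (median log2 1.37). Without KO_Af 12 the counts were 25 and 20. Ube2c, the ubiquitin-conjugating enzyme of the anaphase-promoting complex, stood at 4.19, 3.53 and 4.92 CPM under PBS and 39.4, 36.8 and 35.2 CPM under Af (log2 3.0 ± 0.15 SE, adjusted p = 1.5e-07). Cdk1, the mitotic kinase, stood at 5.01, 5.69 and 6.81 CPM under PBS and 56.3, 39.5 and 42.8 CPM under Af (log2 2.87), and Cdc20, an activator of the same complex as Ube2c, at 6.97, 8.62 and 10.3 CPM under PBS and 51.3, 54.7 and 50.3 CPM under Af (log2 2.54). In S phase Rrm2, of ribonucleotide reductase, stood at 7.07, 7.58 and 10.6 CPM under PBS and 54.3, 59.7 and 60.1 CPM under Af (log2 2.73), and the helicase subunit Mcm5 at 20.1, 23.6 and 26.9 CPM under PBS and 53.6, 70.3 and 65.5 CPM under Af (log2 1.41). The groups were far apart for each.

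Promoters of the 2 lists were read for the CHR element, which the DREAM and MuvB complexes bind, and for CCAAT. The CHR element TTTGAA, searched on both strands, was in 14 of 20 promoters of G2 and mitosis genes (70%) and in 2 of 17 of G1 and S phase genes (11.8%), against 12.4% of promoters of all tested genes. CCAAT, also searched on both strands, was in 17 of 20 (85%) and 10 of 17 (58.8%), against 36.9%. The 200 bases before the start are shown for the 3 mitotic genes named above, with CHR and CCAAT matches of either strand in capitals, because a reader can see where CCAAT and CHR lie against the start: Ube2c (chr2:164769729-164769928, plus strand), Cdk1 (chr10:69352913-69353112, minus strand) and Cdc20 (chr4:118437344-118437543, minus strand), all GRCm38.p6. Matches on the opposite strand read TTCAAA and ATTGG.
Ube2c: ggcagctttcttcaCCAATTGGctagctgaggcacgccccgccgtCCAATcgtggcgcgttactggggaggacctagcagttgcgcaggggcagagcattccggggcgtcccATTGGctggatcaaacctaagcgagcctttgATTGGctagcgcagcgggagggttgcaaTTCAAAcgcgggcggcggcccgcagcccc
Cdk1: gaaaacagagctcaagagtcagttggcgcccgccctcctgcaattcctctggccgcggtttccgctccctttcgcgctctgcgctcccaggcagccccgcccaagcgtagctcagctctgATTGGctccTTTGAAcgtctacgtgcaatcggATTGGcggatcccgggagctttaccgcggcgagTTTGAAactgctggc
Cdc20: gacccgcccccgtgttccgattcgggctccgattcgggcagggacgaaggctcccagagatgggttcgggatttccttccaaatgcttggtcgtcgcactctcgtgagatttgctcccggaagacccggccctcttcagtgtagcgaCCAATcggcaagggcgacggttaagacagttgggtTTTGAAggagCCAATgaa

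Core genes of the circadian clock moved in both directions. CLOCK and BMAL1 (Arntl) switch on the Per, Cry, Nr1d and PAR bZIP genes, and the products of these feed back on them. Of 20 genes 6 rose and 10 fell (median log2 -0.38). Output genes were among those that fell: Per3 stood at 34.0, 37.9 and 30.6 CPM under PBS and 4.88, 6.34 and 5.13 CPM under Af (log2 -2.55 ± 0.13 SE, adjusted p = 1.6e-07). Dbp, a PAR bZIP factor, stood at 67.0, 66.1 and 79.8 CPM under PBS and 7.75, 6.66 and 9.06 CPM under Af (log2 -3.11), and its relative Tef at 173, 197 and 158 CPM under PBS and 36.8, 32.8 and 45.5 CPM under Af (log2 -2.19). The repressors of Arntl, Nr1d1 and Nr1d2, fell as well (log2 -2.04 and -1.49). On the other side Nfil3, which competes with the PAR bZIP factors, stood at 8.49, 10.6 and 10.5 CPM under PBS and 58.4, 70.0 and 91.8 CPM under Af (log2 2.82 ± 0.22 SE, adjusted p = 1.6e-06). Arntl stood at 12.6, 13.8 and 12.3 CPM under PBS and 24.9, 26.4 and 28.6 CPM under Af (log2 1.02), and Npas2, which can take the place of CLOCK, at 4.09, 3.72 and 2.99 CPM under PBS and 10.8, 13.4 and 14.0 CPM under Af (log2 1.69). The repressor gene Cry1 stood at 5.30, 8.25 and 8.09 CPM under PBS and 18.2, 21 and 23.5 CPM under Af (log2 1.49). None of these overlapped between the groups. Per1, which glucocorticoids also induce, did overlap, at 97.1, 133 and 77.8 CPM under PBS and 83.9, 97.3 and 203 CPM under Af (adjusted p = 0.55). The labels used here do not state the time of day at which lungs were taken.

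**Figure D3:**
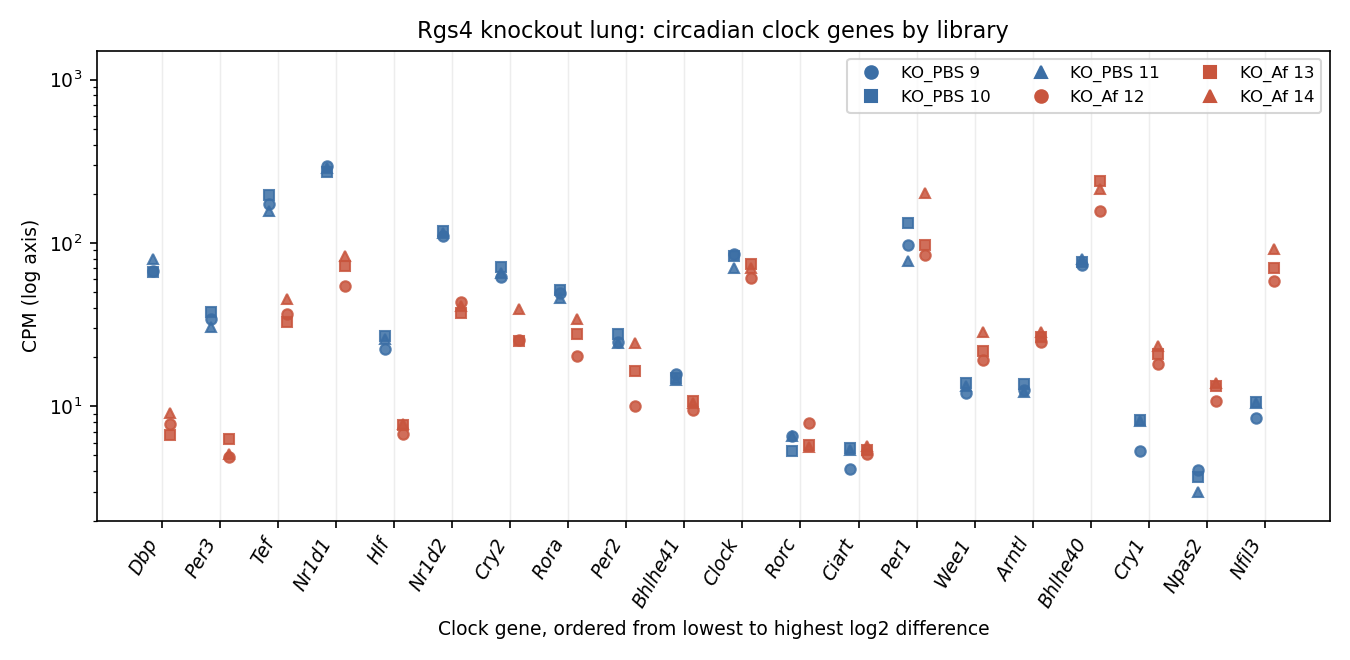
CPM of 20 clock genes on a logarithmic axis, with 1 point for each of the 6 knockout libraries and the genes ordered by their log2 difference. Dbp, Per3, Tef and Nr1d1 lie lower in all 3 KO_Af libraries, and Nfil3, Npas2, Cry1, Bhlhe40 and Arntl lie higher in all 3, while Per1 and Clock overlap.

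The E-box CACGTG, which CLOCK and its partners bind, was in 6 of 21 promoters of the list (28.6%) against 9.29% of promoters of all tested genes. Tef and Cry1 are printed because they carry the same 6 letters and moved in opposite directions. The match begins 127 bases before the start in Tef (chr15:81802473-81802672, plus strand) and 60 in Cry1 (chr10:85185055-85185254, minus strand, both GRCm38.p6).
Tef: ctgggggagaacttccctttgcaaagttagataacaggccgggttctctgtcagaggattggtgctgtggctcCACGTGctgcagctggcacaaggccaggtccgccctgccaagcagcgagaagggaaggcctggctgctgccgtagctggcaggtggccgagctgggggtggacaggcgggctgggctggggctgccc
Cry1: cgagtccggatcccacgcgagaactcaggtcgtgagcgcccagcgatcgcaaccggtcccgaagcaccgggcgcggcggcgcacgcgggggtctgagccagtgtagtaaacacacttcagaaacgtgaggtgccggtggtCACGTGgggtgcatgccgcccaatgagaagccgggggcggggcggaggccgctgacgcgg

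Genes that glucocorticoids induce were split, 7 of 19 higher and 4 lower (median log2 0.63), and several were highest by far in KO_Af 14. Fkbp5, a chaperone that dampens the receptor, stood at 18.5, 14.4 and 13.5 CPM under PBS and 47.6, 62.8 and 219 CPM under Af (log2 2.46, and 1.80 without KO_Af 14). The metallothionein gene Mt2, which also answers to zinc and cytokines, stood at 7.50, 6.21 and 7.16 CPM under PBS and 102, 111 and 476 CPM under Af (log2 4.57, and 3.85 without KO_Af 14). Its neighbour Mt1 had a log2 difference of 2.72, and of 2.10 without KO_Af 14. Both metallothioneins were higher in every Af library than in any PBS library. Cdkn1a, the cell cycle inhibitor p21, stood at 61.2, 58.5 and 59.0 CPM under PBS and 339, 385 and 534 CPM under Af (log2 2.78 ± 0.15 SE, adjusted p = 1.6e-07), while Klf15, a classical target in muscle and lung, fell, at 34.7, 36.2 and 32 CPM under PBS and 11.5, 6.53 and 18.9 CPM under Af (log2 -1.56). Zbtb16 varied more within KO_Af than between the groups, at 13.2, 21.8 and 19.7 CPM under PBS and 11.2, 35.4 and 140.2 CPM under Af (adjusted p = 0.16). Of 23 immediate-early genes 8 rose and 4 fell (median log2 0.20). Myc, the growth factor-induced regulator, stood at 15.9, 13.4 and 13.1 CPM under PBS and 52.5, 75.6 and 75.5 CPM under Af (log2 2.21), and Atf3, a stress-induced factor, at 17.9, 19.2 and 16.1 CPM under PBS and 77.1, 83.3 and 85.5 CPM under Af (log2 2.18), both without overlap. The phosphatase gene Dusp1 and the nuclear receptor gene Nr4a2 fell (log2 -0.85 and -1.14), and Fos and Egr1 overlapped between the groups.

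Protein folding genes rose in the cytosol and in the endoplasmic reticulum. Of 23 heat shock genes 14 rose and none fell (median log2 0.48). Stip1, which links HSP70 to HSP90, stood at 71.3, 72.6 and 80.7 CPM under PBS and 147, 164 and 140.0 CPM under Af (log2 1.0 ± 0.10 SE, adjusted p = 7.2e-06), and Hsp90aa1, the inducible HSP90, at 319, 330.3 and 308 CPM under PBS and 678, 655 and 627 CPM under Af (log2 1.03). Hspa1a, the most heat-sensitive member, followed libraries and not groups: KO_PBS 10 and KO_Af 13 were high, at 23, 114 and 25 CPM under PBS and 17.3, 102 and 40.4 CPM under Af, and its near-identical copy Hspa1b was high in the same pair. In the endoplasmic reticulum 20 of 26 genes rose (median log2 0.93). Sdf2l1, a chaperone cofactor, stood at 9.42, 11.8 and 13.0 CPM under PBS and 58.6, 55.1 and 40.6 CPM under Af (log2 2.12), and the isomerase gene Pdia6 at 202, 196 and 224 CPM under PBS and 490.1, 497 and 426 CPM under Af (log2 1.18). Xbp1, the factor that expands the secretory apparatus, stood at 187, 182 and 182 CPM under PBS and 352, 370.4 and 329 CPM under Af (log2 0.93).

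All 31 ribosomal protein genes tested rose (median log2 0.78), and KO_Af 12 was the highest library: their summed level was 23125 CPM there, 14406 and 17211 CPM in KO_Af 13 and KO_Af 14, and 9762 to 11165 CPM under PBS. Rps2 stood at 182, 189.9 and 203 CPM under PBS and 555, 459.8 and 529.9 CPM under Af (log2 1.42 ± 0.09 SE, adjusted p = 4.7e-07) and Rplp0 at 355, 378 and 429 CPM under PBS and 968, 692 and 802 CPM under Af (log2 1.07). Of 33 genes of the respiratory chain 23 rose (median log2 0.52), but without KO_PBS 9, KO_PBS 10 or KO_Af 12 the count was 11, 12 or 13. Cox5a, of complex IV, stood at 35.5, 32.4 and 47.9 CPM under PBS and 107, 74.6 and 74.6 CPM under Af (log2 1.13). Glycolysis and hypoxia genes rose in 12 of 25 cases (median log2 0.56). Ldha, which makes lactate, stood at 189, 190.2 and 227 CPM under PBS and 574, 479.6 and 517 CPM under Af (log2 1.37), and Adm, adrenomedullin, at 14.7, 12.7 and 13.6 CPM under PBS and 44.4, 76.9 and 70.9 CPM under Af (log2 2.15). Hif1a, the oxygen-regulated factor, stood at 89.0, 91.2 and 88.5 CPM under PBS and 156, 229.9 and 234 CPM under Af (log2 1.18), all 3 without overlap. Vegfa, an endothelial growth factor that type 1 cells make, fell and stood at 807, 799.6 and 545 CPM under PBS and 287, 259 and 217 CPM under Af (log2 -1.48).

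Sterol synthesis genes moved in both directions, 9 of 23 higher and 4 lower (median log2 0.18). The synthetic enzyme genes Pmvk and Cyp51 rose (log2 1.06 and 0.84), and Insig1, which holds the sterol sensor back, fell (log2 -0.60). Fatty acid genes fell in 13 of 27 cases, or 7 without KO_PBS 9 and 8 without KO_PBS 11 (median log2 -0.69). Ppara, which drives fat oxidation, stood at 4.73, 5.17 and 7.82 CPM under PBS and 1.73, 1.93 and 1.89 CPM under Af (log2 -1.42), and Fasn, fatty acid synthase, at 1075, 628 and 976 CPM under PBS and 214, 418 and 363 CPM under Af (log2 -1.45, adjusted p = 0.0057). Adipose genes varied by library: Adipoq, adiponectin, stood at 64.4, 10.2 and 50.7 CPM under PBS and 25.9, 2.02 and 4.16 CPM under Af and was not called (adjusted p = 0.11). The brown fat gene Ucp1 stood at 1.17, 0.260 and 96.4 CPM under PBS and 54.5, 0.368 and 0.154 CPM under Af, high in KO_PBS 11 and KO_Af 12 alone, and was not called (adjusted p = 0.81). The part of these fat genes in the list count was not tested.

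**Figure D4:**
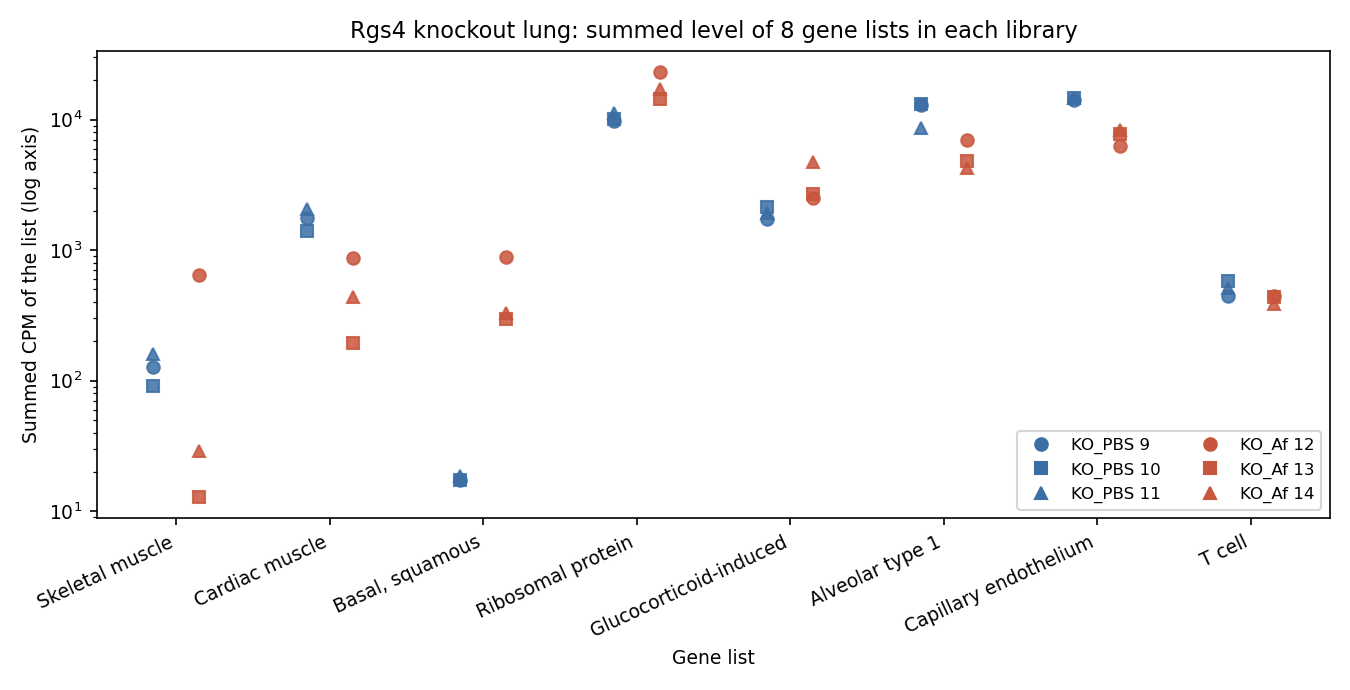
Summed CPM on a logarithmic axis of 8 gene lists in each of the 6 knockout libraries. The skeletal muscle sum is 640.0 CPM in KO_Af 12 against 12.9 and 29.0 in the other Af libraries, while the capillary endothelium sum is lower in all 3 Af libraries than in any PBS library.

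Skeletal muscle genes varied between the Af libraries. Of 8 skeletal muscle genes none was called, and their summed level was 640.0 CPM in KO_Af 12, 12.9 and 29.0 CPM in KO_Af 13 and KO_Af 14, and 91.7 to 161 CPM under PBS. Acta1, skeletal actin, stood at 13.1, 6.80 and 16.6 CPM under PBS and 213, 0.919 and 7.09 CPM under Af. Of 17 heart muscle genes 9 were called lower, or 17 without KO_Af 12, and the summed level was 1409 to 2063 CPM under PBS and 196 to 873 CPM under Af. Myh6, the atrial myosin also found in the sleeves of pulmonary veins, stood at 586, 534 and 730.3 CPM under PBS and 118, 31.7 and 123 CPM under Af (log2 -2.98, and -2.34 without KO_Af 13, its lowest library), and Myh7 at 139.5, 140.0 and 148 CPM under PBS and 36.3, 49.7 and 41.5 CPM under Af (log2 -1.75, adjusted p = 6.0e-06). Tcap, a sarcomere protein among the 15 lowest genes, stood at 55.0, 43.4 and 64.3 CPM under PBS and 20.4, 1.65 and 4.90 CPM under Af (log2 -3.12, -3.99 without KO_Af 12 and -2.35 without KO_Af 13). How much vein, heart or chest wall tissue came with each lung was not tested.

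The knockout response was set against that of WT lungs by the difference of the 2 responses, in the same fit. At an adjusted p under 0.05 this difference called 1 gene of 16126 (0.0062%), and 1750 genes (10.9%) had an unadjusted p under 0.05. The called gene was Sult4a1 (ENSMUSG00000018865.8, chromosome 15, 84076097 to 84105754, minus strand, GRCm38), a brain-type sulfotransferase of low level in lung: it stood at 0.249, 0.223 and 0.571 CPM under PBS and 6.80, 5.42 and 3.43 CPM under Af in the knockout and at 4.06, 3.90 and 0.945 CPM under PBS and 0.384, 0.295 and 0.225 CPM under Af in WT. It rose in the knockout (log2 2.73) and its WT log2 difference was -1.94, a gap of 4.68 ± 0.56 SE (adjusted p = 0.0465). The count of called differences moved with the method: edgeR on recovered reads also gave 1, DESeq2 366 (2.36% of the genes to which it gave an adjusted p), limma with library weights 1602 (9.93%), and fits without KO_Af 12 or KO_Af 13 gave 32 (0.198%) and 187 (1.16%). Limma called 0 genes with no filter, with the stricter filter, with no variance trend and in 7 of the 12 fits that each left out 1 library. Over these 10 fits 1324 to 2415 genes had an unadjusted p under 0.05. The call of Sult4a1 was lost in 8 of the 12 fits without 1 library, those without KO_PBS 9, 10 or 11, WT_PBS 15 or 16, or any WT_Af library. Library WT_PBS 17 stood apart from its group, with Chil4 at 309.9 CPM against 0.786 and 0.564 CPM in WT_PBS 15 and 16. Without it the difference called 1 gene. Other genes with the smallest p-values did not pass. Esm1 fell further in the knockout (log2 -4.06 against -2.51 in WT), as did Tnfrsf19 (log2 -1.86 against -0.83) and Treml4 (log2 -2.28 against -0.63), and Cdkn1a rose further (log2 2.78 against 1.3). The adjusted p of the 9 next in order ran from 0.0557 to 0.0726.

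By list, the natural killer, T cell, heat shock and glucocorticoid genes had most of their members below an unadjusted p of 0.05 for the difference of responses. The share of all genes was 10.9%, and no member passed at an adjusted p under 0.05. Of 14 natural killer and cytotoxic genes 10 were below the unadjusted threshold, all with a lower log2 difference in the knockout than in WT (median -0.86). How far the PBS levels of the genotypes or single libraries bear on that count was not tested. Of 28 T cell genes 17 were below it, 16 of them with a lower log2 difference in the knockout than in WT, and the list's median difference of responses was -1.39 on the log2 scale. The WT libraries varied in this list: the summed T cell level was 166, 342 and 275 CPM in the 3 WT_PBS libraries and 1262, 436 and 404 CPM in the 3 WT_Af libraries, so WT_Af 18 stood far above the rest and WT_PBS lay below KO_PBS. Genes of developing T cells in the thymus were high in that library alone: Rag1, of the recombinase that cuts antigen receptor genes, was at 109 CPM in WT_Af 18, its partner Rag2 at 13.2 CPM, the terminal transferase gene Dntt at 57.5 CPM and the pre-T cell receptor gene Ptcra at 2.69 CPM, and each was under 1 CPM in the other 11 libraries. None of the 4 passed the filter on low values. Without WT_Af 18 the median was -0.84, with 13 genes below the threshold. The number was 8 without WT_PBS 15, 9 without KO_Af 14, and 10 without KO_PBS 10 or KO_PBS 11. Cd3e stood at 5.09, 11.1 and 8.31 CPM under PBS and 36.2, 13.2 and 10.5 CPM under Af in WT (log2 1.09), and its difference of responses was -1.32 (adjusted p = 0.39). Of 23 heat shock genes 18 were below it, all with a higher log2 difference in the knockout than in WT (median 0.69). Hsp90aa1 stood at 794, 806 and 1008 CPM under PBS and 856, 925 and 725 CPM under Af in WT (log2 -0.06), a difference of 1.09 (adjusted p = 0.059). All 23 had a higher mean in WT_PBS than in KO_PBS, and the summed level was 3307, 3688 and 3561 CPM in KO_PBS, 5409, 6005 and 5043 CPM in KO_Af, 8190.1, 7976 and 11008 CPM in WT_PBS and 8076, 8623 and 7425 CPM in WT_Af. Every knockout library thus lay below every WT library, and the rise with Af narrowed that gap. Of 19 glucocorticoid-induced genes 15 were below it, all with a higher log2 difference in the knockout than in WT (median gap 1.25), which for some was a smaller fall, as for Klf15 (log2 -1.56 against -2.65). Fkbp5 stood at 157, 127 and 132 CPM under PBS and 94.3, 70.6 and 96.6 CPM under Af in WT (log2 -0.68), a difference of 3.14 (adjusted p = 0.0893). Here too 17 of the 19 had a higher mean in WT_PBS than in KO_PBS, so for both lists a gap between the PBS groups went with the difference of responses, in which the same PBS libraries enter. Members of a list are not independent of each other. With library weights 15 glucocorticoid, 9 heat shock, 3 T cell and 1 natural killer genes were called, and with DESeq2 10, 11, 3 and 1. Knockout libraries carry the numbers 9 to 14 and WT libraries 15 to 20, so genotype and library number cannot be told apart.

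**Figure D5:**
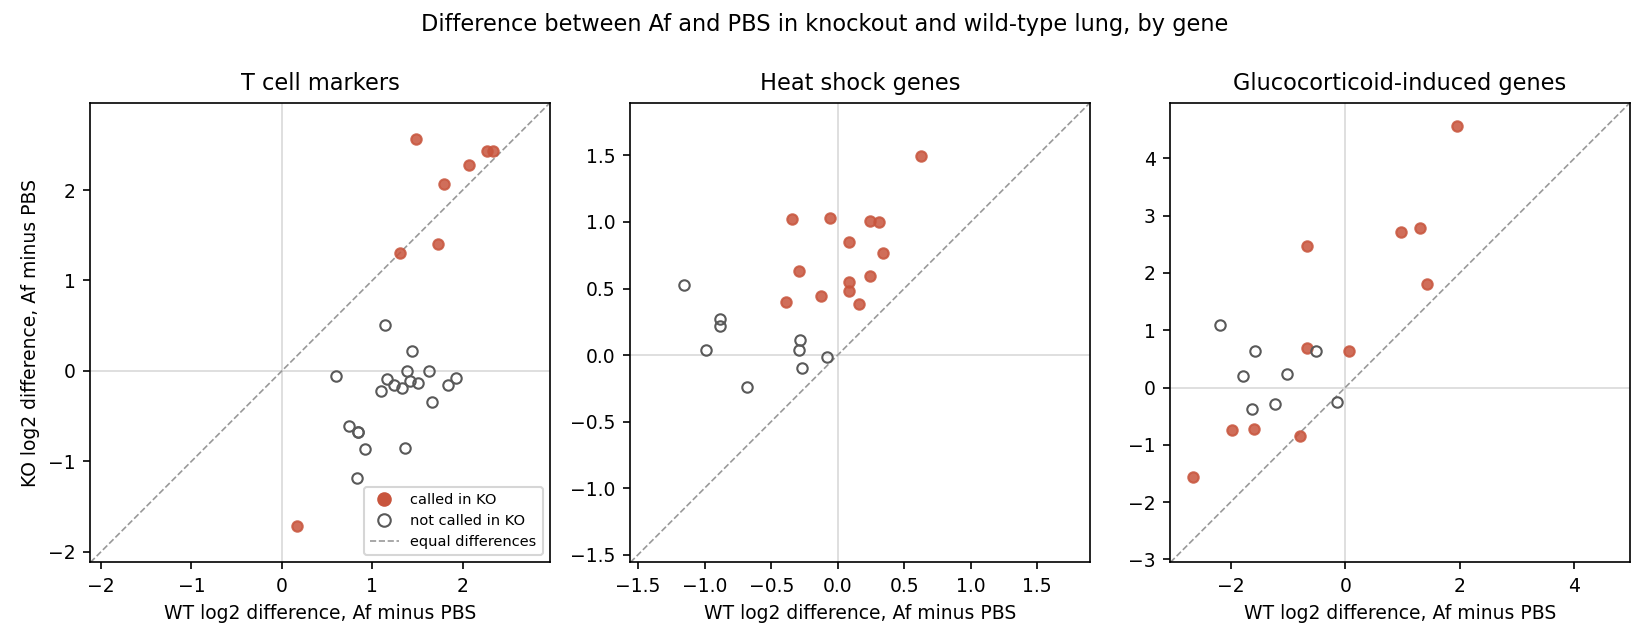
Log2 difference (Af minus PBS) in the knockout on the vertical axis against that in WT on the horizontal axis for the T cell, heat shock and glucocorticoid lists, 1 point for each gene, filled where the gene was called in the knockout, with a dashed line of equality. Most T cell genes lie below the line and nearly all heat shock and glucocorticoid genes above it.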

How the data were processed

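Whole-lung polyA RNA of 12 mice was sequenced after library preparation with Illumina TruSeq mRNA kits, per the labels' protocols. The submitters' processing notes name cutadapt 1.18, STAR 2.7.6a, RSEM 1.3.0 and the builds GRCm38 and GRCh38, without their roles. The authors deposited a table of signal in reads scaled to a common library size (CPM) with TMM factors. Its values are whole multiples of 1 read in each library (100% of values within 0.01 of a whole read), so reads were recovered for alternatives.

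The fit took the 16126 of 49585 genes with 1 CPM or more in any 3 of the 12 libraries, as log2(CPM + 0.5), in limma 3.58.1 (trend, 4 groups, 8 residual degrees of freedom, two-sided, Benjamini-Hochberg adjusted p under 0.05). Nothing in the sources says how the animals were bred or housed, so p-values measure only the spread between these samples. Alternatives were other pseudocounts, filters and scalings, a fit without variance trend, library weights, the knockout groups alone, each library left out, and edgeR 4.0.16 and DESeq2 1.42.0 on recovered reads. On simulated data with 200 changed genes among 16126 70% of the 2-fold changes and 31% of those of 1.5-fold were called, and 6 calls were wrong. Far fewer genes were changed there than the 57.9% called in the knockout comparison, so these rates need not hold for it.

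The groups, gene lists and named-gene rule were chosen with earlier results of these data known. The rule names the 15 highest, 15 lowest and 15 highest-CPM genes of 2-fold or more, up to 8 members of each list by p, the 10 smallest p-values for the difference of responses, 8 genes of high spread, Rgs4 and Rgs5, and defining markers at or near 0. Adipoq, Ager, Arntl, Bpifa1, Card9, Ccl5, Ccno, Ccr4, Cd163, Cd3e, Cd79a, Cdh5, Chrm1, Chrm2, Chrm3, Clock, Cnn1, Cybb, Cyp1b1, Dntt, Egr1, Fos, Foxj1, Gata3, Gsto1, Hes1, Hpgd, Hspa1a, Hspa1b, Ighe, Il1b, Mcidas, Muc5b, Nos2, Npas2, Pdcd1lg2, Pecam1, Per1, Postn, Ptcra, Rag1, Rag2, S100a8, S100a9, Scgb1a1, Sftpc and Zbtb16 were named after their values were seen. Some genes that the rule names are not reported here. Gene positions are from GENCODE M21, and promoters from RefSeq GRCm38.p6. Whether counting used strand is not stated in the labels, so reads of antisense partners may be included.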

Additional observations from a re-analysis of the deposited data

Results flagged for a closer look

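The response of Sult4a1 to the fungus differed between the genotypes in direction. In the knockout it stood at 0.249, 0.223 and 0.571 CPM under PBS and at 6.80, 5.42 and 3.43 CPM under Af, a rise in all 3 libraries. In WT it stood at 4.06, 3.90 and 0.945 CPM under PBS and at 0.384, 0.295 and 0.225 CPM under Af, a fall in all 3. The difference of the responses was 4.68 on the log2(CPM + 0.5) scale (limma, adjusted p = 0.0465). Its call was lost with no filter on low values, with no variance trend, and without KO_PBS 9, 10 or 11, WT_PBS 15 or 16, or WT_Af 18, 19 or 20, with differences from 4.39 to 4.86.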

How the results depend on the processing

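The knockout comparison kept its size under every alternative run: leaving out 1 knockout library gave 7946 to 9477 genes called. The count of genes whose response differed from WT, 1, moved to 2 with a pseudocount of 1, to 5 with either other scaling, to 0 with no filter, with the stricter filter or with no variance trend, to 366 with DESeq2 and to 1602 with library weights, and ranged from 0 to 187 when 1 library was left out. The cause was not tested. Of 58 list counts 52 stayed within 1.5 times when 1 knockout library was left out. The 6 others were the lower members of the natural killer list (2, range 1 to 4), the fatty acid list (13, range 7 to 14), the heart muscle list (9, range 6 to 17), a thymus and lymph node list (2, range 1 to 3) and a cartilage and thyroid list (3, range 1 to 3), and the higher members of the respiratory chain list (23, range 11 to 28). Of 276 named genes called in the knockout, 7 lost the call under at least 1 alternative (Acan, Ager, Col10a1, Csf2, Gata3, Krt14 and Scgb1a1), and none reversed its direction. No paired analysis was possible because the groups share no replicate numbers. Depth limits genes below about 0.144 CPM, the level of 3 reads in the shallowest library, and DESeq2 gave no adjusted p for 6 values of named genes.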
